A study of Mus musculus with 33 samples.

Results

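The enzymes that build and desaturate fatty acids were followed at the RNA level in mouse mammary tumors and tumor-free glands. The 10 genes were taken by symbol from the raw count table, namely Acly, Acaca, Fasn, Elovl5, Elovl6, Scd1, Scd2, Fads1, Fads2 and Srebf1, of 55487 genes in all. The tests ran on the 36527 genes whose reads, added up over all libraries, reached 10, and all 10 genes passed this filter. The question was which of these genes follow the rise of Scd1 in tumors and which do not.

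GFP+ mammary cells were sorted from 33 mice on an FVB background after the digested tissue had been kept for 48 h in medium with serum, and 1 RNAseq library was made per mouse. Tumor mice carried MMTV-PyMT, an oncogene under a promoter active in mammary epithelium, and tumor-free mice did not. Pthrp flox/flox mice (PTHrP KO) lose the floxed part of Pthlh (the PTHrP gene) in cells with active MMTV-Cre, and Pthrp wt/wt mice (PTHrP WT) keep it. Every group, the tumor-free glands included, carried Cre and the mTmG reporter, so the sorted cells are those in which Cre had acted. There were 3 WT tumors at each of weeks 6, 8 and 10 and 1 at week 12, and 3 KO tumors at each of weeks 8, 10 and 12. For comparison there were 2 WT glands without tumor at each of weeks 6, 8, 10 and 12, and 2 KO glands at each of weeks 8, 10 and 12.

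Fatty acid synthesis starts from citrate. ATP citrate lyase (Acly) makes acetyl-CoA, acetyl-CoA carboxylase (Acaca) turns it into malonyl-CoA, and fatty acid synthase (Fasn) joins these units into palmitate. Elongases lengthen the chain, stearoyl-CoA desaturases such as Scd1 and Scd2 make monounsaturated fatty acids, and Fads1 and Fads2 desaturate polyunsaturated ones, while Srebf1 encodes SREBP-1, a transcription factor known to switch on most of these genes. In the mammary gland this pathway is best known for the milk fat made by alveolar cells in lactation.

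Counted reads per library ranged from 28419983 to 130981596 (median 46351179). The share of reads on rRNA genes was at most 0.447% in WT libraries and ran up to 12.0% in KO tumors and 18.8% in KO glands. Pthlh counts over the whole gene did not separate the genotypes (in CPM, reads scaled to a common library size by TMM, 1.47 to 6.67 for WT and 1.35 to 2.29 for KO tumors), so the genotype was taken from the labels, and a count over the whole gene cannot tell which exons were removed. Luminal epithelial markers were present in every library, with a summed level of 4116 to 10570 CPM over 10 genes, mostly Krt8 and Krt18. Neither Krt8 nor Krt18 was called changed in tumors. Pgr (log2 change -5.47 in WT and -4.25 in KO mice) and Foxa1 (-3.93 and -3.25) were called lower in tumors of both genotypes. So were Krt19 (-2.18 and -1.41) and Esr1 (-2.02 and -0.84). Prlr was called lower in WT tumors only (-1.24), and Cldn3 and Cldn7 were called higher in KO tumors only (0.68 and 0.59). The 10 basal markers were all called lower in tumors of both genotypes (1014 to 5584 CPM summed, against 5392 to 21410 CPM in glands), and 9 of 10 alveolar luminal markers were called higher (409 to 1873 CPM against 121 to 319 CPM). Of 10 macrophage markers, 1 was called higher and 4 lower in WT tumors, and 2 higher and 0 lower in KO tumors. Their sum (151 to 418 CPM in tumors, 63.5 to 172.5 CPM in glands) was mostly Cd14 (median 231 CPM in WT tumors and 66.3 CPM in WT glands), while Adgre1, which encodes the defining marker F4/80, had group medians of at most 0.223 CPM. Adipocyte markers summed to at most 11.3 CPM in any library, and Adipoq, which defines fat cells, had 0 to 7 reads. In sorted bulk RNA, fewer cells of a type and less RNA per cell cannot be told apart, and the part of this shift in epithelial markers in the results below was not tested.

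Promoter windows of 300 bases, from 250 before to 50 after an annotated start, are shown for Srebf1, the regulator that moved with Scd1 in tumors, and for Fasn and Acly, a pair of enzymes of the same pathway that did not. The sequences are from RefSeq (GRCm38.p6), where 7 of the 10 genes matched, with 9 windows, and Scd1, Scd2 and Fads1 did not. Letters in capitals match, on either strand, CCAAT (the CCAAT box bound by NF-Y), GGGCGG (the GC box bound by Sp1), CACGTG (the E-box) or TCACNCCA (a core of the sterol regulatory element bound by SREBP).
Srebf1, first start (chr11:60222532-60222831, minus strand): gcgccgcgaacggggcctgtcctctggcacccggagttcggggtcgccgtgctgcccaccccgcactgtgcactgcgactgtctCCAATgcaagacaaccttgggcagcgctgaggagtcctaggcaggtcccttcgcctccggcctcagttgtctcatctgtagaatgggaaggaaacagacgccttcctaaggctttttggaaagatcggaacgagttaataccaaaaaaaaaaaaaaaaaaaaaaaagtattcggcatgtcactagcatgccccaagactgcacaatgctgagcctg
Srebf1, second start (chr11:60220578-60220877, minus strand): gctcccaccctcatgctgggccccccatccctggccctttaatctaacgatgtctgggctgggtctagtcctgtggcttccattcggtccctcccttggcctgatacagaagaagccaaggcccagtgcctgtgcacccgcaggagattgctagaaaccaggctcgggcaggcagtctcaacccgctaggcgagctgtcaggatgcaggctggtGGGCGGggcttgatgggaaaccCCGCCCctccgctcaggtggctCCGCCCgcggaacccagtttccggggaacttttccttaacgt
Srebf1, last start (chr11:60210422-60210721, minus strand): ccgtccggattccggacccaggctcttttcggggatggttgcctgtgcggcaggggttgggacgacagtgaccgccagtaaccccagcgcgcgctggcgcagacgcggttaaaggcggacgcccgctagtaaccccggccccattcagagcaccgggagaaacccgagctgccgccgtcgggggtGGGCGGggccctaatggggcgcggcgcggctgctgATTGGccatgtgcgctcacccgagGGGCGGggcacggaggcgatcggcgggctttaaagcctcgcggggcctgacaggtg
Fasn (chr11:120824498-120824797, minus strand): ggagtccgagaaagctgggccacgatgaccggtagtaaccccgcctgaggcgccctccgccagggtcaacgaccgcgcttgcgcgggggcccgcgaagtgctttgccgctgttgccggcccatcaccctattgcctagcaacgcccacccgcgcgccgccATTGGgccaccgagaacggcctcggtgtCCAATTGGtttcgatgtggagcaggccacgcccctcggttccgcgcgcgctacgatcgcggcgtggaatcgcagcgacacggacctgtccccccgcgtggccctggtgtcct
Acly (chr11:100527951-100528250, minus strand): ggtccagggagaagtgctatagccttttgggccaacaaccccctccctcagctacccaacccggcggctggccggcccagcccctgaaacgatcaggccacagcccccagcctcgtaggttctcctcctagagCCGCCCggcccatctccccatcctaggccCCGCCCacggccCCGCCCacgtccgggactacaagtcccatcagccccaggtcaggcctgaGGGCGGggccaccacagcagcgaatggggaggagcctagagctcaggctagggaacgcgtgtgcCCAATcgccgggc
The Fasn window held 3 CCAAT matches, of which a pair on opposite strands overlap. The Acly window held 4 GC boxes and 1 CCAAT match. The windows of Srebf1 held 1 CCAAT match at the first start, 3 GC boxes at the second, and 2 GC boxes with 1 CCAAT match at the last, and the counts per gene cannot be assigned to 1 of these starts. TCACNCCA was found in none of the 9 windows and in 4.36% of 32851 promoter windows of this length, CACGTG in the window of Elovl5 alone and in 7.15% of all, CCAAT in 37.4% and GGGCGG in 35.7%. These matches describe the letters in the windows and show neither binding nor its absence.

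Averaged over the 3 age-matched comparisons of a genotype, Scd1 and Srebf1 rose in tumors of both genotypes, and the other 8 genes were not called higher in either. A gene was called changed at a fold change over 1.5 and an adjusted p under 0.1 (edgeR quasi-likelihood test, Benjamini-Hochberg over all genes tested). In WT mice 2 of the 10 genes were called higher, where 6.21% of all genes were, and 0 were called lower, where 9.53% of all genes were. At an unadjusted p under 0.05, 4 genes were lower in WT tumors (Scd2, Fasn, Acly and Fads1), and DESeq2 also called 0 lower. Without WT gland 2 of week 10, Scd2 and Fads1 were called lower in WT tumors (both by 0.63 on the log2 scale). In KO mice 2 genes were called higher (5.16% of all genes) and 2 were called lower, Elovl6 and Fads1 (5.44% of all genes). The median log2 change over the 10 genes was 0.01 in WT and -0.38 in KO mice, beside 0.03 and 0.09 over all genes.

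**Figure D1:**
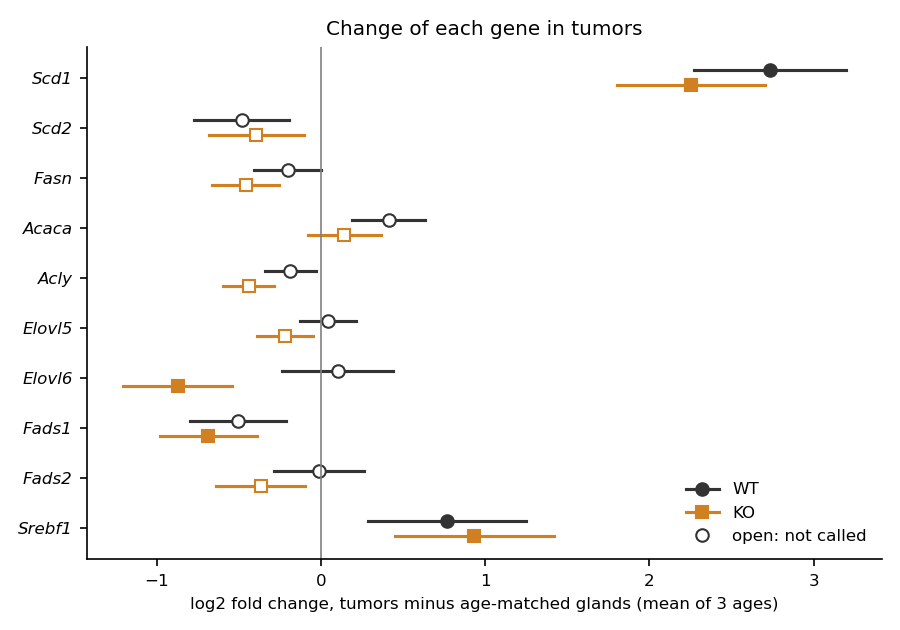
Log2 fold change between tumors and age-matched glands, averaged over 3 ages, for each gene in WT (circles) and KO mice (squares), with 95% intervals from the edgeR fit; filled symbols were called. Scd1 stands at 2.74 in WT and 2.25 in KO mice, Srebf1 at 0.77 and 0.93, and every other gene lies between -0.87 and 0.41.

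Scd1 makes oleate and palmitoleate from saturated fatty acyl-CoAs and lies on chromosome 19 (chr19:44394455-44407879, GRCm38, minus strand; Gencode M21 coordinates). In WT mice of week 6 the tumors held 2567, 2502 and 1183 CPM of Scd1 and the glands 392.5 and 353.1 CPM. At week 8 the WT tumors held 2447, 5861 and 3191 CPM and the glands 383.8 and 430.5 CPM, and at week 10 the tumors held 3203, 2097 and 2005 CPM and the glands 470 and 398.2 CPM. Every WT tumor lay above both glands of its age, and the single WT tumor of week 12 (2765 CPM) lay above the WT glands of that week (654.9 and 833.6 CPM). In KO mice of week 8 the tumors held 3124, 2863 and 2614 CPM and the glands 839.1 and 806.3 CPM. At week 10 the KO tumors held 2794, 2869 and 4016 CPM and the glands 375 and 507.5 CPM, and at week 12 the tumors held 1327, 2190 and 3332 CPM and the glands 671.9 and 406.7 CPM. Thus 18 of 18 age-matched tumors lay above both of their glands, and over all libraries the lowest tumor (1183 CPM) was above the highest gland (839.1 CPM).

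The rise of Scd1 averaged 6.66-fold in WT mice (log2 2.74 ± 0.22 SE, n = 9 tumors and 6 glands, edgeR adjusted p = 2.62e-09) and 4.76-fold in KO mice (log2 2.25 ± 0.22 SE, n = 9 and 6, edgeR adjusted p = 9.04e-08). It was called in each of the 6 single-age comparisons, from 3.48-fold in KO mice of week 8 to 9.41-fold in WT mice of week 8. With 1 of the 2 KO glands of week 8 left out, that comparison kept its size (log2 1.77 or 1.83) but was no longer called (edgeR adjusted p = 0.132 and 0.233). The KO comparison of week 12 was not called when only its own 5 libraries were fitted (log2 2.05, edgeR adjusted p = 0.183).

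Scd1 also became the leading stearoyl-CoA desaturase RNA. Scd2, a second enzyme of the same reaction, is encoded on the same chromosome (chr19:44293674-44306864, plus strand), with 87590 bases between the genes. Per kb of exon, the level of Scd1 in glands (median 92.0 CPM per kb) was below that of Scd2 (median 216 CPM per kb), and in tumors Scd1 (median 565 CPM per kb) was above Scd2 (median 150 CPM per kb). Scd1 made up 25.6% to 41.0% of the pair in the 14 glands and 61.8% to 87.7% in the 19 tumors. Scd1 was the higher of the pair in 19 of 19 tumors and in 0 of 14 glands.

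**Figure D2:**
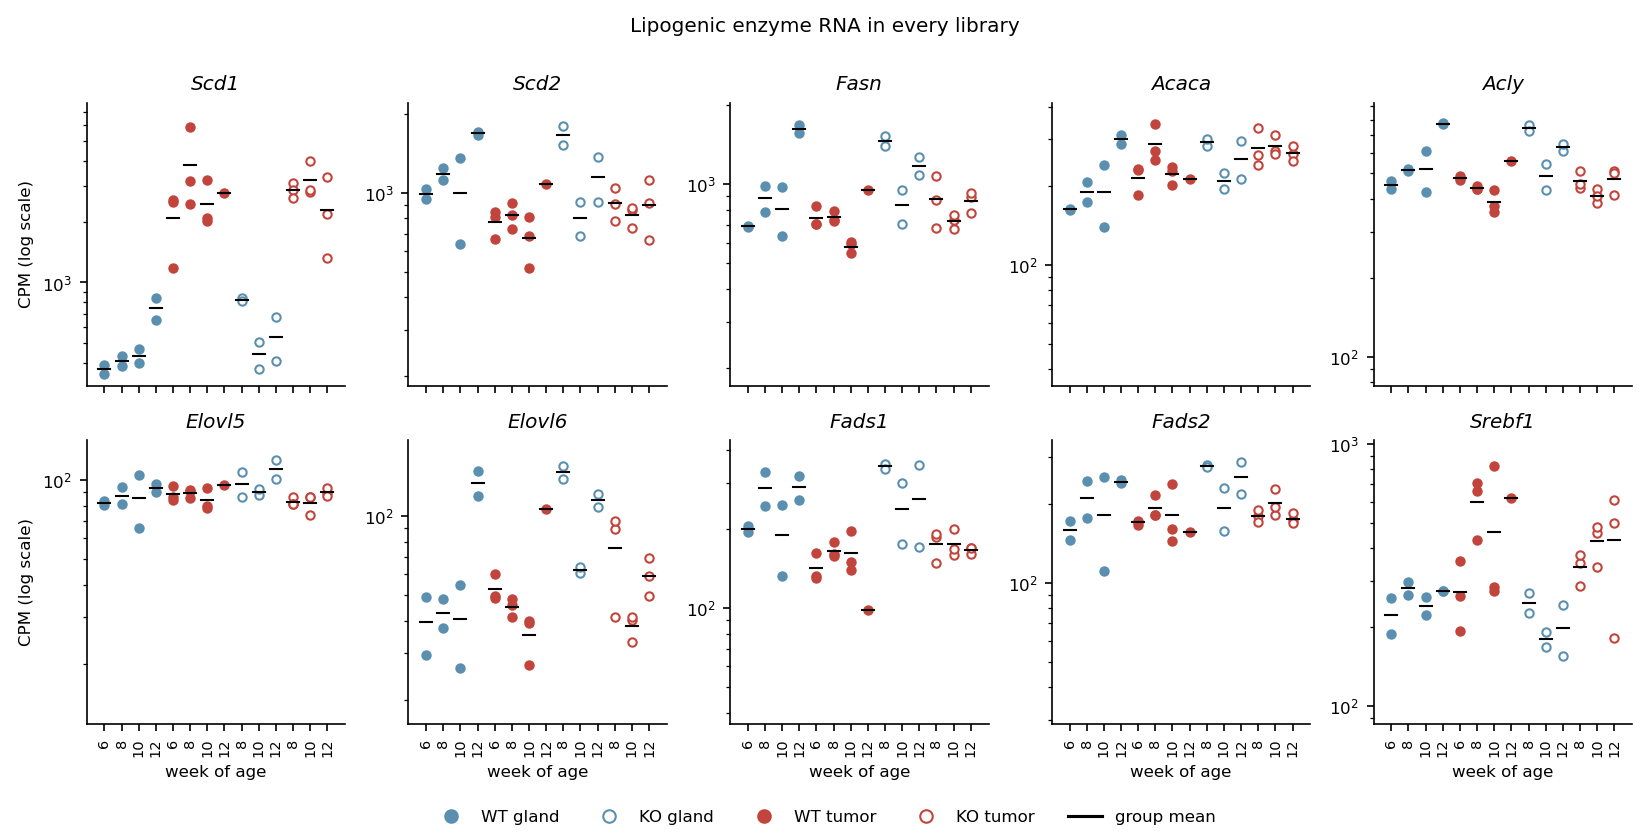
RNA level of each gene in every library, in CPM on a log axis that spans a like range in each panel, by genotype, tissue and week of age; each point is a mouse and each bar a group mean. Tumors (red) separate from glands (blue) for Scd1, with 1183 CPM in the lowest tumor and 839.1 CPM in the highest gland, and overlap them for the other 9 genes.

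Srebf1 (chr11:60199089-60222581, minus strand) followed Scd1 in direction, by a smaller amount. In WT tumors it measured 356.8, 263.3 and 194.1 CPM at week 6, 430.8, 658.5 and 709.6 CPM at week 8, and 823, 283.5 and 275.4 CPM at week 10. The WT glands of these weeks ranged from 188.3 to 298.3 CPM. In KO tumors it measured 349.9, 286.9 and 376.7 CPM at week 8, 337.6, 458.6 and 480.4 CPM at week 10, and 181.2, 612.7 and 497.2 CPM at week 12. The KO glands ranged from 154.7 to 269.3 CPM. In both genotypes 8 of 9 tumors lay above both glands of their age, and 1 tumor in each, of week 6 in WT and week 12 in KO mice, lay between them.

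Averaged over ages, Srebf1 rose 1.70-fold in WT mice (log2 0.77 ± 0.23 SE, n = 9 tumors and 6 glands, edgeR adjusted p = 0.0213) and 1.91-fold in KO mice (log2 0.93 ± 0.24 SE, edgeR adjusted p = 0.00675). The WT tumor with 823 CPM carried part of this: without it the WT change was 0.53 on the log2 scale (edgeR adjusted p = 0.0611), under the 1.5-fold limit. Of the single ages, KO mice of week 10 were called (2.37-fold, edgeR adjusted p = 0.0945), a call lost with the replicate block (adjusted p = 0.125), with the rRNA share as a covariate (0.135) and without any 1 of 4 libraries (0.203 to 0.391). WT mice of week 8 (2.13-fold) and KO mice of week 12 (2.16-fold) missed the limit at adjusted p = 0.119 and 0.139. Both were called by DESeq2 (adjusted p = 0.0591 and 0.0584), without a filter on low counts (0.00699 and 0.00768) and with filterByExpr (0.0834 and 0.0965), and the WT comparison of week 8 also without rRNA genes (0.0941) and with only its own groups (0.0259). An exon of Srebf1 overlaps Rai1 on the other strand in Gencode M21, and the strand setting of the counting was not stated.

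Of the 3 enzymes that lead to palmitate, Acly and Fasn did not follow Scd1, and Acaca stayed under the 1.5-fold limit in the averaged change. Acly (chr11:100476353-100528000, minus strand) ranged from 357 to 559.6 CPM in tumors and from 424.5 to 777.3 CPM in glands, and the tissues overlapped. Its averaged log2 change was -0.19 in WT mice (95% interval -0.34 to -0.03) and -0.44 in KO mice (-0.60 to -0.28, edgeR adjusted p = 0.000146), both under the 1.5-fold limit. In KO mice 8 of 9 tumors lay below both glands of their age, and in WT mice 5 of 9 did, with the 3 tumors of week 6 above both.

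Fasn (chr11:120805846-120824547, minus strand) ranged from 546.1 to 1081 CPM in tumors and from 638.6 to 1682 CPM in glands. The averaged log2 change was -0.20 in WT mice (95% interval -0.41 to -0.0005, edgeR adjusted p = 0.172) and -0.46 in KO mice (-0.66 to -0.26, edgeR adjusted p = 0.0015, 1.38-fold lower). In KO mice 7 of 9 tumors lay below both glands of their age. In WT mice of week 6 the tumors (706.4, 828.1 and 709.4 CPM) were above both glands (695.2 and 690.1 CPM). At week 10 they (546.1, 601.8 and 592.6 CPM) were below both (980 and 638.6 CPM).

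Acaca (chr11:84129672-84401651, plus strand), which makes the malonyl-CoA for both synthesis and elongation, was the enzyme nearest to a rise. It ranged from 184.3 to 343.7 CPM in tumors and from 139.4 to 312.8 CPM in glands. In WT mice 6 of 9 tumors lay above both glands of their age and 0 below. In KO mice 4 of 9 lay above both and 2 below. The averaged log2 change was 0.41 in WT mice (95% interval 0.19 to 0.63, edgeR adjusted p = 0.00736), under the 1.5-fold limit, and 0.14 in KO mice (-0.08 to 0.36). At week 8 the WT tumors (270.5, 343.7 and 250 CPM) were called higher than the glands (205.6 and 173.4 CPM), by 0.60 on the log2 scale (edgeR adjusted p = 0.0479). This call was lost under 4 other settings, and without WT tumor 2 (0.46, adjusted p = 0.226) or WT gland 2 (0.49, adjusted p = 0.389) of that week.

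The elongases differed from Scd1 and from each other. Elovl5 (chr9:77917364-77984519, plus strand), which lengthens polyunsaturated chains, moved little, from 73.9 to 95.9 CPM in tumors and from 65.5 to 119.6 CPM in glands. Its averaged log2 change was 0.04 in WT mice (95% interval -0.13 to 0.21) and -0.22 in KO mice (-0.39 to -0.05), both under the 1.5-fold limit. All 9 KO tumors lay below both glands of their age, and 0 of 9 WT tumors did.

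Elovl6 (chr3:129532355-129638495, plus strand) lengthens palmitate to stearate, a substrate of Scd1. KO tumors measured 41.4, 89.7 and 96.0 CPM at week 8 against 138.9 and 154.7 CPM in glands. They measured 40.3, 33.1 and 41.3 CPM at week 10 against 60.7 and 64.3 CPM, and 69.4, 59.0 and 49.8 CPM at week 12 against 108.7 and 121 CPM. All 9 KO tumors lay below both glands of their age, and Elovl6 fell by 0.87 on the log2 scale (± 0.16 SE, 1.83-fold lower, edgeR adjusted p = 0.000315), which held in all 25 other settings run. WT tumors of weeks 6 to 10 ranged from 27.1 to 60.4 CPM and their glands from 26.4 to 54.7 CPM, so the groups overlapped, with an averaged log2 change of 0.10 (95% interval -0.24 to 0.44). The rRNA share was up to 18.8% in KO glands, and with that share as a covariate the KO change was -0.84. An exon of Elovl6 overlaps Gm35986 on the other strand.

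The remaining desaturases did not rise with Scd1. Scd2 ranged from 517.3 to 1119 CPM in tumors and from 639.9 to 1801 CPM in glands, and 12 of 18 tumors lay below both glands of their age and 0 above. The averaged log2 change of Scd2 was -0.48 in WT mice (95% interval -0.77 to -0.20, edgeR adjusted p = 0.0151) and -0.39 in KO mice (-0.68 to -0.11, edgeR adjusted p = 0.0632), opposite in sign to Scd1 and under the 1.5-fold limit.

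Fads1 (chr19:10182888-10196877, plus strand), the delta-5 desaturase of arachidonate synthesis, was below both age-matched glands in 14 of 18 tumors and above both in 0. It ranged from 98.4 to 200.1 CPM in tumors and from 132.4 to 355.1 CPM in glands. In KO mice Fads1 fell by 0.69 on the log2 scale (± 0.14 SE, 1.61-fold lower, edgeR adjusted p = 0.00117). Without KO gland 1 of week 12 (349.7 CPM) or KO gland 2 of week 10 (300.7 CPM) the change was -0.47 or -0.54, under the 1.5-fold limit. In WT mice the change was -0.51 (95% interval -0.80 to -0.21, edgeR adjusted p = 0.0129), also under the limit. Its neighbour Fads2 (chr19:10062765-10101746, minus strand), the delta-6 desaturase, had an averaged log2 change of -0.01 in WT mice (95% interval -0.29 to 0.26), and in KO mice it was -0.37 (-0.64 to -0.10).

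Over the 60 pairs of a gene and a single-age comparison, 8 were called higher, 6 of them Scd1, and 7 were called lower. In WT mice of week 6, 1 gene was called higher (2.32% of all genes) and 0 lower (3.53% of all genes), with 0 lower at an unadjusted p under 0.05 and 0 by DESeq2. In WT mice of week 8, 2 genes were called higher (Scd1 and Acaca, 3.35% of all genes) and 1 lower (Fads1, 5.84% of all genes). In WT mice of week 10, 1 gene was called higher (2.46% of all genes) and 0 lower (3.67% of all genes), with 3 lower at an unadjusted p under 0.05 and 0 by DESeq2. Without WT gland 2 of week 10, 3 genes were called lower there, Scd2, Fasn and Acly, by log2 changes of -1.02, -0.76 and -0.66 (edgeR adjusted p from 0.00922 to 0.0249). The KO mice of week 8 stood out: 1 gene was called higher (1.11% of all genes) and 5 were called lower (Scd2, Fasn, Acly, Elovl6 and Fads1, 1.38% of all genes). Of all 14 glands, the highest level of Scd2 (1801 CPM) and of Elovl6 (154.7 CPM) was in KO glands of that week. The call of Scd2 was lost with the replicate block (edgeR adjusted p = 0.118). With only the groups compared, those of Fasn (0.119) and Elovl6 (0.203) were lost and Fads2 was called lower (0.0284). Of these 5 decreases, 0 were called without KO gland 1 of that week, 1 without gland 2 (Acly), and 3 without any single tumor, with Scd2 lost in each case. In KO mice of week 10, 2 genes were called higher (Scd1 and Srebf1, 2.57% of all genes) and 0 lower (3.09% of all genes), with 1 lower at an unadjusted p under 0.05 and 1 by DESeq2. In KO mice of week 12, 1 gene was called higher (3.19% of all genes) and 1 lower (Elovl6, 2.92% of all genes). The call of Srebf1 at week 10 was lost without either gland or without tumor 2 or 3, that of Elovl6 at week 12 without gland 2 or tumor 2 or 3, and that of Fads1 in WT mice of week 8 without gland 1 or tumor 1 or 3, at adjusted p of up to 0.391, 0.261 and 0.398 over all settings.

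**Figure D3:**
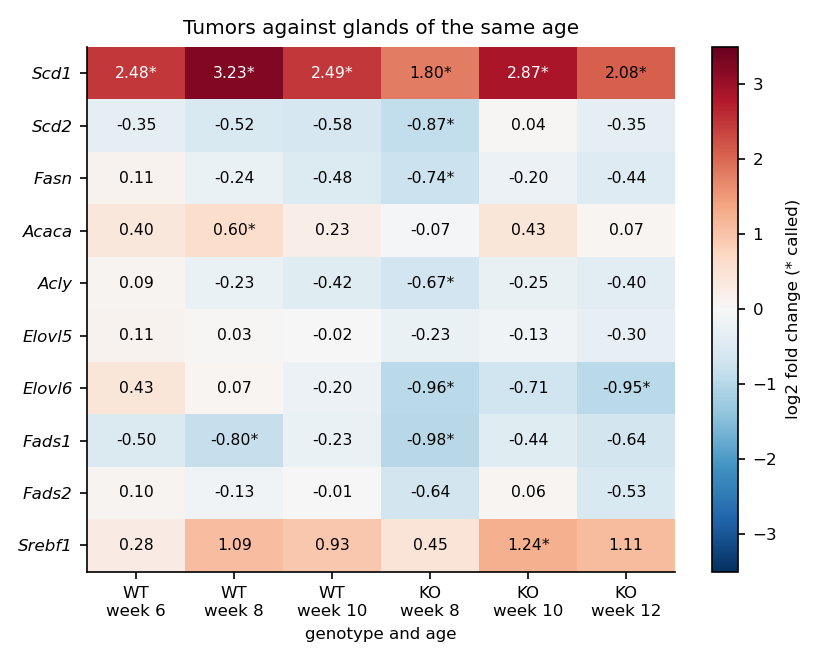
Log2 fold change between the 3 tumors and 2 glands of each genotype and age for the 10 genes; colour and number give the value, and a star marks a call. The Scd1 row is positive and called at all 6 ages (1.80 to 3.23), the Srebf1 row is positive at all 6 (0.28 to 1.24), and the KO column of week 8 holds 5 called decreases.

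Because genes of 1 library share its scaling, the ratio of Scd1 to each other gene was compared directly. In tumors the ratio was higher for each of the 9 genes, and in 18 of 18 tumors it was above the ratio of both glands of the same genotype and age. The ratio differed least against Srebf1 (3.17-fold, log2 1.67, from 1.06 to 2.15 over the 6 comparisons) and then against Acaca (4.49-fold, log2 2.17). Against Elovl5, Fads2, Acly, Fasn, Elovl6 and Scd2 it was 5.77- to 7.34-fold higher, and against Fads1 8.07-fold (log2 3.01). With any single library left out, the log2 difference was 1.61 to 1.72 against Srebf1 and 2.96 to 3.09 against Fads1. All 9 ratios share Scd1, whose rise was known when the genes were chosen, so they are given as a description. A two-sided exact permutation test over the 30 libraries, with tissue labels permuted within genotype and age, gave the smallest p it allows for each of the 9 (1e-06), and these are not 9 independent results. Scd1 lay above both glands in 18 of 18 tumors, and no other gene rose as far. This p thus reflects the rise of Scd1 and cannot tell whether a gene follows it.

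**Figure D4:**
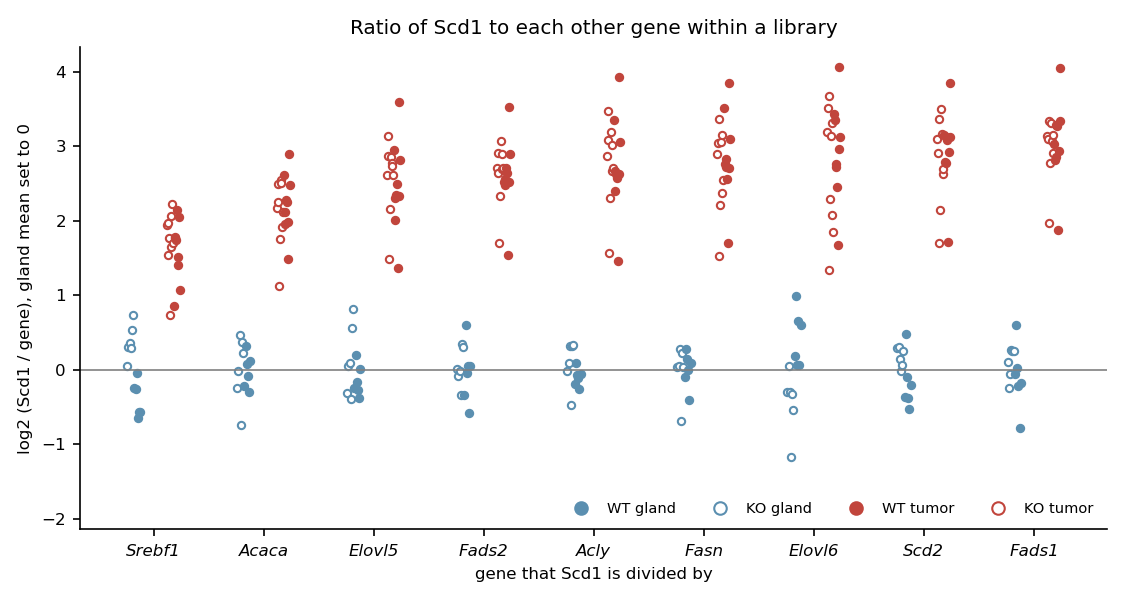
Log2 ratio of Scd1 to each other gene in the 30 libraries of the age-matched comparisons, with the mean of the 12 glands set to 0; each point is a mouse, filled for WT and open for KO. The tumors lie above the glands of their own age for all 9 genes, by 1.67 on average for Srebf1 at the left and 3.01 for Fads1 at the right.

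PTHrP KO and WT tumors were compared to ask whether the pathway differs with genotype. Between WT and KO tumors of weeks 8 and 10, 0 of the 10 genes were called by edgeR (0.512% of all genes in either direction), with 2 at an unadjusted p under 0.05 and 0 by DESeq2. For Scd1 the log2 difference was 0.01 (95% interval -0.44 to 0.46). Matched by stage, 0 genes were called by edgeR in hyperplasia (WT week 6 against KO week 8, 1.53% of all genes), adenoma (WT week 8 against KO week 10, 0.00821%) or carcinoma (WT week 10 against KO week 12, 0.0192%). At an unadjusted p under 0.05 these comparisons held 1, 0 and 3 genes, and DESeq2 called 0 in each.

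The tumor effect itself was also compared between the genotypes. Over weeks 8 and 10, 0 genes differed by edgeR (0.00548% of all genes, 1 gene at an unadjusted p under 0.05, 0 by DESeq2), and over the 3 stages 0 differed (0.14% of all genes, 3 genes at an unadjusted p under 0.05). For Scd1 the difference over the stages was 0.48 on the log2 scale (95% interval -0.10 to 1.07, edgeR adjusted p = 0.609). Elovl6 was nearest to the limit, with an effect 0.97 higher in WT than in KO mice (± 0.23 SE, edgeR adjusted p = 0.109). DESeq2 called it (adjusted p = 0.00978), as did 3 more of the other 9 fits with all replicates, and over all alternatives the adjusted p ranged from 0.00189 to 0.336.

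With progression, 0 genes were called between WT tumors of weeks 10 and 6 (0.011% of all genes in either direction by edgeR, 4 of the 10 at an unadjusted p under 0.05, 0 by DESeq2). In KO tumors of weeks 12 and 8, 0 were called as well (0% of all genes by edgeR, 0 of the 10 at an unadjusted p under 0.05, 0 by DESeq2). Scd1 differed by 0.22 (95% interval -0.41 to 0.86) and -0.33 (-0.97 to 0.31) on the log2 scale in these comparisons.

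In tumor-free WT glands, several genes of the pathway were higher at week 12 than at week 6. Mean Fasn was 692.7, 886.9, 809.3 and 1625 CPM in WT glands of weeks 6, 8, 10 and 12. In KO glands of weeks 8, 10 and 12 it was 1466, 832.1 and 1178 CPM. Between WT glands of weeks 12 and 6, 4 of the 10 genes were called higher (0.2% of all genes). Fasn measured 695.2 and 690.1 CPM at week 6 and 1568 and 1682 CPM at week 12 (2.35-fold, edgeR adjusted p = 0.0160), and Elovl6 measured 49.3 and 29.5 CPM and then 118.9 and 148.4 CPM (3.39-fold, edgeR adjusted p = 0.0254). Acly rose by 0.78 (edgeR adjusted p = 0.0319) and Acaca by 0.89 (edgeR adjusted p = 0.0925) on the log2 scale. The groups did not overlap for these 4 genes, but with only 2 mice a side the calls did not hold without single glands: 0 to 2 genes were called when 1 was left out. Scd1 differed by 1.00 between the same glands and was not called (edgeR adjusted p = 0.437). Without a filter on low counts, Scd1 (adjusted p = 0.0542) and Scd2 (adjusted p = 0.0701) were called as well.

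Between WT and KO glands of weeks 8, 10 and 12, 1 gene was called lower in WT, Elovl6 (0.402% of all genes), by 0.73 on the log2 scale (edgeR adjusted p = 0.0606). WT glands measured 48.5 and 37.4 CPM at week 8 and 54.7 and 26.4 CPM at week 10, against 138.9, 154.7, 60.7 and 64.3 CPM in KO glands, while at week 12 the WT glands (118.9 and 148.4 CPM) and KO glands (108.7 and 121 CPM) overlapped. The rRNA share differed between these groups (at most 0.261% in WT glands and up to 18.8% in KO glands), and with it as a covariate the difference was -0.62 (edgeR adjusted p = 0.407). Leaving out 1 gland also ended the call in 8 of 12 cases, which were either WT gland of week 12, either KO gland of week 10, WT gland 2 of weeks 8 or 10, and KO gland 2 of weeks 8 or 12, with an adjusted p of up to 0.227. Between KO glands of weeks 12 and 8, 0 of the 10 genes were called (0.567% of all genes in either direction by edgeR, 0 of the 10 at an unadjusted p under 0.05, 0 by DESeq2).

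The variation of each gene with Scd1 across mice was described within each tissue. Over the 19 tumors Srebf1 was the member most like Scd1 (Pearson r = 0.72, permutation p = 0.00031, Spearman rho = 0.71, permutation p = 0.00102), ranking 151 of 13109 genes. Without the 2 tumors farthest from the median of Scd1 the r of Srebf1 was 0.64 (rank 377), and after subtracting group means it was 0.72 (rank 450). Fads2 had r = 0.55 (permutation p = 0.0151, rho = 0.56, permutation p = 0.0132, and r = 0.53 without the 2 tumors). Acaca had r = 0.59 (permutation p = 0.00829, rho = 0.39, permutation p = 0.103), which dropped to 0.19 without those 2 tumors and so rests on them. Genes with a higher r made up 8.2% of all ranked for Fads2 and 6.4% for Acaca. After subtracting group means these shares were 17.5% (r = 0.47) and 15.7% (r = 0.50). For Fads1 the measures differed, with r = 0.25 (permutation p = 0.292) and rho = 0.50 (permutation p = 0.0307), and r = 0.27 without the 2 tumors. In tumors r was 0.12 for Scd2, 0.01 for Fasn, -0.09 for Elovl5, -0.10 for Elovl6 and -0.34 for Acly.

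Over the 14 glands all 9 genes had a positive r with Scd1. Acly was most like Scd1 (r = 0.87, permutation p = 9e-05, rho = 0.83, permutation p = 0.00044, r = 0.81 without the 2 farthest glands), followed by Fasn (r = 0.84, permutation p = 0.00044, rho = 0.78, permutation p = 0.00164) and Elovl6 (r = 0.83, permutation p = 0.00064, rho = 0.78, permutation p = 0.00181). Srebf1 was the least like it (r = 0.38, permutation p = 0.176, rho = 0.42, permutation p = 0.138). Genes with a higher r made up 0.389% of all ranked for Acly, 0.741% for Fasn and 0.981% for Elovl6. After subtracting the means of each group of age and genotype, r in glands was 0.38 for Acly, 0.17 for Fasn and 0.24 for Elovl6. The shares were then 31.4%, 44.1% and 39.8%. These group means were also subtracted for the other genes. With them subtracted, r went from 0.74 to -0.08 for Acaca, from 0.80 to 0.64 for Scd2 and from 0.72 to 0.55 for Fads2. It was higher than before for Srebf1 (0.66) and Fads1 (0.82, from 0.72), and 0.49 in place of 0.48 for Elovl5. With Gm50337, these are 20 relations with p-values not adjusted for their number, and the points share genotype, age and library scaling. The difference between tissues was not tested.

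**Figure D5:**
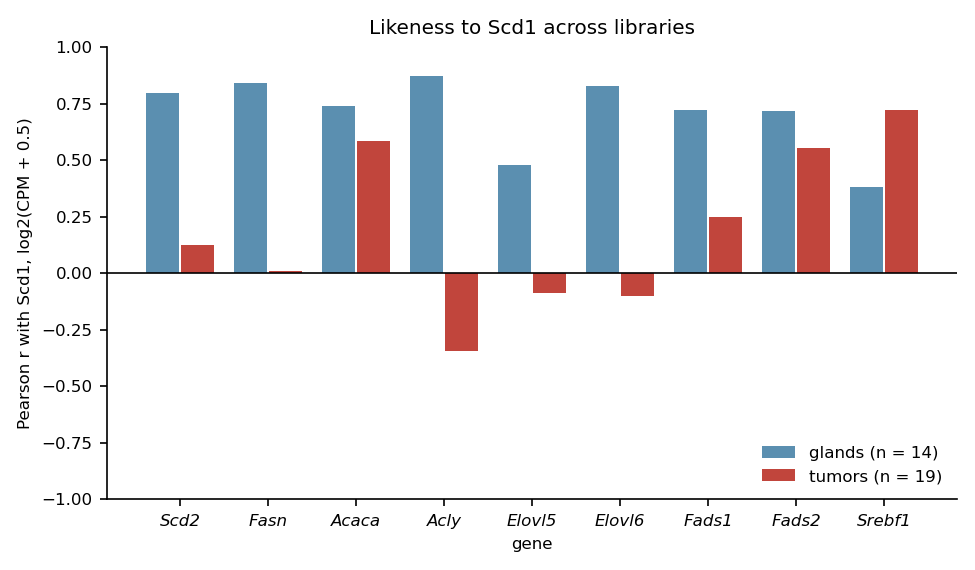
Pearson r between Scd1 and each other gene, on log2(CPM + 0.5), over the 14 glands (blue) and the 19 tumors (red). Acly has 0.87 in glands and -0.34 in tumors, whereas Srebf1 has 0.38 in glands and 0.72 in tumors.

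The 5 genes most like Scd1 over the 19 tumors among all genes with a mean of at least 1 CPM were S100a1 (r = 0.89, rho = 0.84), Marchf8 (0.88 and 0.82), Cnnm2 (0.88 and 0.90), Abca1 (0.87 and 0.82) and Syn2 (0.86 and 0.88). They are named by rank and given with no test. Abca1, a cholesterol exporter, measured 65.2 to 450 CPM in tumors and 7.44 to 74.1 CPM in glands, with an averaged log2 change of 2.30 in WT and 3.27 in KO mice.

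Gm50337, a long noncoding RNA next to Scd1 that the study follows, rose in tumors at low counts. The study picked it from these same libraries, for its rise in WT tumors and its correlation with Scd1. The p-values below thus repeat that choice and are no independent test. It had 17 to 104 reads in WT tumors and 1 to 15 in WT glands, and 20 to 72 in KO tumors and 1 to 14 in KO glands, so 18 of 18 tumors lay above both glands of their age in CPM. The averaged log2 change was 2.80 in WT mice (± 0.33 SE, edgeR adjusted p = 4.83e-07) and 2.42 in KO mice (± 0.34 SE, edgeR adjusted p = 9.91e-06). Over the 19 tumors its r with Scd1 was 0.59 (permutation p = 0.00511, rho = 0.60, permutation p = 0.00701, r = 0.58 without the 2 farthest tumors), and after subtracting group means r was 0.46 and rho 0.28 over 18 tumors. Over the 14 glands r was 0.83 (permutation p = 0.00046, rho = 0.80, permutation p = 0.00083, r = 0.76 without the 2 farthest glands), and 0.43 after subtracting group means. Genes with a higher r made up 6.01% of 13109 over the tumors, and 18.5% after subtracting group means. In glands they made up 0.936% of 13355 genes, and then 28.2%.

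A wider list of 55 genes of fatty acid supply, elongation, desaturation, control, activation and uptake gave 8 genes called higher and 6 lower in WT mice, and 8 higher and 4 lower in KO mice, by the averaged tumor effect. Over all genes tested, the WT comparison called 6.21% higher and 9.53% lower, and the KO comparison 5.16% higher and 5.44% lower. The median log2 change was 0.05 in WT and 0.10 in KO mice, near those of all genes. Among the partners of acetyl-CoA carboxylase, Thrsp, a lipogenic factor, rose by 5.21 on the log2 scale in WT and 3.88 in KO mice (edgeR adjusted p = 1.77e-07 and 3.36e-06), from at most 1.25 CPM in any gland to between 1.32 and 40.5 CPM in tumors. Mid1ip1, which helps the carboxylase form filaments, fell by 0.76 in WT mice (edgeR adjusted p = 9.05e-05). In KO mice it fell by 0.56 (edgeR adjusted p = 0.00337), under the 1.5-fold limit.

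Among elongation genes, Elovl4, which makes very long chains, fell by 2.44 in WT and 2.16 in KO mice (edgeR adjusted p = 2.06e-08 and 2.99e-07). Hacd4 rose by 0.80 in KO mice (edgeR adjusted p = 0.0435). Of the other desaturases, Scd3 rose by 1.37 and Scd4 fell by 1.05 in WT mice, both at no more than 1.83 CPM in WT mice, and Fads6 rose by 0.88 in KO mice. In the other genotype these changes had the same sign and were not called (Scd3 0.33, Scd4 -0.79, Fads6 0.57).

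Among controlling factors, Mlxipl, which encodes the carbohydrate-responsive factor ChREBP, rose by 0.89 in WT and 1.11 in KO mice (edgeR adjusted p = 0.00288 and 0.000488). Nr1h3, which encodes the oxysterol receptor LXR alpha, rose by 0.96 in WT mice (edgeR adjusted p = 0.000174). Pparg was called higher in both genotypes, by 1.35 and 2.36, at 0.128 to 1.01 CPM in WT tumors and with 1 KO tumor at 15.5 CPM.

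In triglyceride synthesis the acyltransferase gene Dgat2 fell by 1.85 in WT and 0.89 in KO mice, whereas Acsl4, an acyl-CoA synthetase for arachidonate, rose by 1.17 and 1.07. The lipid droplet coat gene Plin2 rose by 1.02 and 0.74. Acss2, which activates acetate, fell by 1.11 in KO mice. The fatty acid importer Cd36 fell by 2.49 in WT mice, with a median of 1.44 CPM in WT glands and 0.609 CPM in WT tumors. Olah was called in KO mice, but it had 0 to 6 reads in any library and no fold is given.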

How the data were processed

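The labels gave the genotype, tissue and week of the 33 libraries, each of sorted GFP+ cells of 1 mouse. The authors depleted rRNA, made stranded libraries, aligned with HISAT to Gencode M16 models and GRCm38, discarded amplification duplicates (Picard 1.128) and obtained gene counts with HTSeq. Coordinates and exon lengths here are from Gencode M21 (GRCm38). Raw counts as deposited are the basis of every result. The authors also deposited a normalized signal (DESeq2, R 3.6.2), in which each library's counts are scaled by a single factor, used as an alternative only. Whether counting used strand is not given in the sources used here. Of all rows, 111 are no genes (0.0778% of reads) and were left out.

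Tests used edgeR 4.0.16 (estimateDisp, glmQLFit, glmQLFTest, TMM) with 1 coefficient per genotype, tissue and week over all 33 libraries, including the single WT tumor of week 12. Genes needed 10 reads in all, and calls a fold change over 1.5 and an adjusted p under 0.1. SE is the log2 change divided by the square root of F. Replicates are separate mice, and none of 25 pairs within groups were duplicates. Ratios used counts + 0.5 and exact permutations; correlations used 100000 permutations. On simulated data with 200 changed genes, the averaged comparisons recovered 100 of 100 genes changed by 2 and 69 (WT) or 70 (KO) of 100 changed by 1 on the log2 scale. They also called 12 (WT) and 18 (KO) unchanged genes, of 35485 genes tested. The simulation gave every gene the same dispersion and drew changed genes from those with a mean of at least 1 CPM. Its rates are thus a check of the code and not the power of the real tests.

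Named genes were the 10 members, Gm50337, up to 3 called genes with the largest change per group of the wider list, and the 5 genes most like Scd1. A further gene list is not reported here. Members and lists were chosen with earlier results of these data known. Marker lists held 10 genes each; in tumors of WT and KO mice the number called higher was 0 and 0 for adipocytes, 0 and 2 for luminal cells, 0 and 0 for fibroblasts, 1 and 2 for macrophages and 0 and 0 for endothelium, and the number called lower was 3 and 0, 5 and 4, 7 and 2, 4 and 0, and 6 and 1. Alternatives were DESeq2 1.42.0, its size factors in edgeR, other filters, only the groups compared, no single WT tumor, a replicate block, rRNA genes removed or their share as a covariate, limma 3.58.1 on log2(normalized signal + 1), and each replicate left out.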

Additional observations from a re-analysis of the deposited data

How the results depend on the processing

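Scd1 stayed called in the averaged tumor effect under all 10 other fits and all 15 replicates left out per genotype, from 2.59 to 2.85 in WT and from 2.13 to 2.40 in KO mice on the log2 scale, and the 9 ratios to Scd1 kept direction in all alternatives. The p of these ratios was the smallest possible with all libraries and with 1 left out, so it says nothing about their stability. No call of a member changed direction. Leaving out replicates kept the trend of dispersion from the full fit.

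Counts of members called moved as follows. In the difference of the tumor effect over the 3 stages, 1 gene (Elovl6) was called in place of 0 without a filter, with filterByExpr, with DESeq2 and with limma on the normalized signal. In WT week 8, 1 was called higher in place of 2 with DESeq2's size factors, the rRNA covariate and limma, and 3 without a filter, with filterByExpr, without rRNA genes and with only the groups compared (Srebf1 gained). In WT week 10, 2 were called higher in place of 1 without a filter. In KO week 10, 1 was called higher in place of 2 with the replicate block and with the rRNA covariate, and 1 was called lower in place of 0 without a filter, with DESeq2 and with only the groups compared. In KO week 12, 2 in place of 1 were called higher, and 2 in place of 1 lower, without a filter, with filterByExpr and with DESeq2, and 0 in each direction with only the groups compared. In KO week 8, 6 were called lower in place of 5 without a filter and with DESeq2 (Fads2 gained), and 4 with the replicate block and with only the groups compared. In WT glands of weeks 12 and 6, 2 were called higher in place of 4 with only the groups compared, 3 with the rRNA covariate and 6 without a filter. For WT against KO glands, 0 were called lower in place of 1 with the rRNA covariate and with only the groups compared. The cause of these moves was not tested.

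With 1 replicate left out, the number called higher ranged from 1 to 2 (WT averaged), 1 to 3 (WT week 8), 0 to 1 (KO week 8), 1 to 2 (KO weeks 10 and 12), 0 to 2 (difference over the stages) and 0 to 2 (WT glands by age). The number called lower ranged from 0 to 2 (WT averaged), 1 to 2 (KO averaged), 0 to 1 (WT week 8), 0 to 3 (WT week 10 and KO week 8), 0 to 1 (KO week 12), 0 to 1 (hyperplasia, WT against KO tumors), 0 to 1 (WT against KO glands) and 0 to 1 (KO glands by age). The libraries behind the calls of Srebf1, Fads1, Elovl6 and the week 8 KO genes are named with them in the report. A group left with 1 library is assumed to vary like the others.

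Whether replicate numbers pair the mice was not settled. Deviations from group means of same-numbered tumors and glands had r from -0.56 to 0.56, and 3 of 12 pairs were above 0.1. Both pairs of KO week 8 were among these (0.52 and 0.56). The 2 glands of a group deviate as mirror images, so the 12 values are not independent checks. With the replicate block, Scd1 kept its calls (2.75 in WT and 2.27 in KO mice averaged over ages), and 2 calls were lost, Srebf1 in KO week 10 and Scd2 in KO week 8. The low counts of Olah, Pparg and Gm50337 add counting error.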

Other observations

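The rank of Abca1 beside Scd1 led to a look at other genes that the oxysterol receptor LXR is known to drive, chosen after values were seen and given with no test. Abcg1, another cholesterol exporter, ranged from 15.5 to 60.2 CPM in tumors and from 6.60 to 41.5 CPM in glands, with an averaged log2 change of 0.14 in WT and 0.73 in KO mice. Mylip, a ubiquitin ligase, had changes of 0.54 and 0.94, and Lpcat3, a phospholipid acyltransferase, had changes of -0.09 and -0.16. Abca1 thus showed the largest of these 4 differences, at 2.30 and 3.27.

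The single WT tumor of week 12, which entered no test between groups, held 107 CPM of Elovl6, above the 27.1 to 60.4 CPM of the 9 younger WT tumors and near the WT glands of its week (119 and 148 CPM). It held 98.4 CPM of Fads1, the lowest of all libraries.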
